A study of Mus musculus with 6 samples.

Results

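The genes described here are the 34 mouse genes of N-linked glycosylation and of the calnexin cycle, taken by symbol from a table of 55487 genes. All 34 were in the table under 1 Ensembl identifier each, and all 34 had enough counts to be tested. They were measured by RNA sequencing in MIN6 cells, a mouse insulinoma line that secretes insulin and stands in for pancreatic beta cells. Cells were transiently transfected by lipofection with a construct for full-length parathyroid hormone-related protein (PTHrP) or, as the control, with the vector for the red fluorescent protein DsRed alone, with 3 libraries in each group and RNA taken no later than 3 days after transfection. Both groups thus share the same line and the same lipofection, a culture transfected transiently can hold cells that took up no construct, and no untransfected library was analysed here. The series title puts the question as how PTHrP affects stress of the endoplasmic reticulum (ER).

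N-glycosylation attaches a branched sugar to asparagines of proteins entering the ER. The sugar is built on the lipid dolichol, first on the cytosolic and then on the lumenal side of the ER membrane, and is moved to the protein by the oligosaccharyltransferase. Glucosidases then trim it, so that the lectin chaperones calnexin and calreticulin can hold the protein while it folds, and a folding sensor returns proteins that are not yet folded to these lectins. Beta cells carry a heavy load of secretory protein through the ER, and several genes of this pathway are known targets of the unfolded protein response.

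No gene of the pathway passed the test between the groups, and fold changes ran in both directions. Stt3a, a catalytic subunit of the oligosaccharyltransferase, had the smallest p-value of the 34 and lay lower in all 3 PTHrP libraries, while its paralog Stt3b differed little. Genes that make or use dolichol-linked sugars went both ways. Mpdu1, Alg5, Dpm2 and the mannosyltransferase gene Alg1 lay higher in all 3 PTHrP libraries. Dpagt1, Alg2 and Alg8 lay lower in all 3, and Dpm1 had a negative fold change with groups that overlapped. The lectin genes Calr and Canx had negative fold changes with groups that overlapped. Fold changes compare PTHrP with DsRed as log2 values (negative where PTHrP is lower), levels are CPM (counts set to a common library size, here scaled by the TMM method), and adjusted p-values are from edgeR's quasi-likelihood test over all 21141 genes tested.

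Libraries held 84427033 to 94613684 gene counts. Pthlh, which encodes PTHrP, had 697, 553 and 797 counts in PTHrP replicates 1 to 3 and 0, 4 and 8 counts in DsRed replicates 1 to 3. All 10 beta cell markers were detected in every library, with a summed level of 52757 to 58362 CPM in PTHrP and 53566 to 64768 CPM in DsRed. Among them Mafa was low in PTHrP replicate 2, at 793 CPM against 1336 to 1433 CPM in the other libraries. Pdx1 alone had groups that did not overlap, at 254 to 271 CPM in PTHrP against 272 to 281 CPM in DsRed. Of the 6 markers of other islet cells Gcg was the main one, with 133 to 177 CPM in PTHrP and 142 to 153 CPM in DsRed, and the other 5 were at or under 0.227 CPM in each library. Markers of other tissues summed in each library to at most 2.31 CPM for 4 acinar genes (Amy2a5 at 0 throughout), 0.328 for 2 ductal, 4.67 for 3 fibroblast, 2.51 for 2 endothelial and 2.42 for 2 immune genes. No marker passed the test. PTHrP replicate 2 stood apart from every other library, with a chi-square per gene of 58.4 to 72.5 against 9.16 to 38.2 among the other pairs. DsRed replicate 3 lay near the PTHrP libraries in several of the genes below, such as Calr, Rpn1 and Gmppb. In others, such as Alg1, Ost4 and Dad1, it was the DsRed library farthest from them. In such bulk libraries fewer cells of a kind and less RNA per cell cannot be told apart.

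Promoters are shown first for the genes that carry the ER stress response element, because that element is a well known link between this pathway and the unfolded protein response. The element (ERSE) reads CCAAT, then any 9 bases, then CCACG, and is known as a site for the factor pair NF-Y and ATF6. It was searched on both strands in RefSeq promoters of GRCm38.p6, from 250 bases before to 50 bases after the start of transcription. A promoter was matched for 30 of the 34 genes, and not for Alg2, Dpagt1, Ostc and Tusc3. The element was present in 3 of the 30 (10.0%), Calr, Canx and Alg12, and in 37 of 27025 genes with a promoter in the table (0.137%). The 250 bases before the start of each follow, 5′ to 3′ along the gene, with the fixed letters of the element in capitals. The Calr window is chr8:84846932-84847181 on the minus strand, the Canx window chr11:50325674-50325923 on the minus strand and the Alg12 window chr15:88819319-88819568 on the minus strand.
Calr: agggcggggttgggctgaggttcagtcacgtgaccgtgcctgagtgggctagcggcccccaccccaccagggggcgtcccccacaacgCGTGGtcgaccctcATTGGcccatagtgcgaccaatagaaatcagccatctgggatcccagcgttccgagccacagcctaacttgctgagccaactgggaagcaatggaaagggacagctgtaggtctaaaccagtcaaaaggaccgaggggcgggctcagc
Canx: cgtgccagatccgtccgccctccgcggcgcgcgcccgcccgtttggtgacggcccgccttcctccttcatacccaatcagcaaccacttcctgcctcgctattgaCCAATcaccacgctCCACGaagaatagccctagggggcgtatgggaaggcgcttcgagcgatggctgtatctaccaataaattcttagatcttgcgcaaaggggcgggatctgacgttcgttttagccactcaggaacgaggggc
Alg12: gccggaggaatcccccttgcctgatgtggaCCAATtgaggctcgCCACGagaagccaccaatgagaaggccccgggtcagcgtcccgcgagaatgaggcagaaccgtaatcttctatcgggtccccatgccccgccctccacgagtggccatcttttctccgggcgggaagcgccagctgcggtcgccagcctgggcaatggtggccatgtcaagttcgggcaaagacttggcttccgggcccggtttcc

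The element began 162 bases before the start in Calr, where it reads on the opposite strand, 145 before it in Canx and 220 before it in Alg12. The shorter form ERSE-II, which reads ATTGG, any 1 base and CCACG, was found in 1 of the 30, Krtcap2, where it lies 17 to 27 bases after a start, against 0.0444% of all genes with a promoter. The element UPRE, TGACGTGG, a known site for XBP1 and ATF6, was in none of the 30 and in 0.714% of all, and no motif overlapped another. In the counts, Calr had a log2 fold change of -0.15, Canx of -0.13, Alg12 of -0.07 and Krtcap2 of -0.07, with adjusted p-values from 0.591 to 0.906. Hspa5, the chaperone BiP, whose promoter in the same table holds an ERSE too, fell by 0.55 on that scale (adjusted p = 0.0121). It had rank 4 of the genes tested by p-value and was not on a list fixed in advance. The counts of the remaining genes with an ERSE were not examined. This 1 gene therefore does not show how genes with the element behave. A match to these letters is a description of the sequence and does not show a site in use.

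Of the 34 genes, 22 had a negative and 12 a positive fold change, with a median of -0.07, beside a median of -0.01 and 51.3% negative fold changes over all genes tested. No member passed at an adjusted p under 0.05, where 0.0426% of all genes did with edgeR, and none passed with DESeq2 or limma-voom. At an unadjusted p under 0.05, 4 members were lower (Stt3a, Ostc, Dpagt1 and Alg2), or 11.8% of them against 3.98% of all genes. Another 4 were higher (Mpdu1, Alg1, Alg5 and Tusc3), 11.8% against 4.92%. The 3 PTHrP libraries lay below the 3 DsRed libraries in 5 members, those 4 and Alg8, which is 14.7% against 7.88% of all genes, and above them in 5 members, the 4 higher ones and Dpm2, 14.7% against 8.45%. The counts on the lower side changed when single libraries were left out. The count below without overlap never fell under 5, but leaving a library out can hardly undo such a separation. In 22 of the 34 genes leaving out at least 1 library moved the fold change by over 1.5 times or turned its sign. PTHrP replicate 2 did so in 15 genes, DsRed replicate 1 in 15 and DsRed replicate 3 in 14. Small fold changes meet this relative measure easily, and its share over all genes was not computed. No library did so in Stt3a, Ostc, Dpagt1, Alg2, Alg8, Mpdu1, Alg1, Alg5 or Dpm2. Of the genes without overlap only Tusc3 was moved so, by PTHrP replicate 2. Without DsRed replicate 3, 12 members lay below (35.3%, against 13.8% of all genes with 3 libraries set against 2) and 8 had an unadjusted p under 0.05 and a negative fold change (23.5% against 3.86%). Without PTHrP replicate 2, 8 lay below (23.5% against 15.2%), and the median of the members was -0.01. Only 2 members were lower at an unadjusted p under 0.05 (5.88%) when PTHrP replicate 3, DsRed replicate 1 or DsRed replicate 2 was left out, against 3.57%, 2.19% and 2.46% of all genes in turn. With a trend in gene length removed from each library 9 members (26.5%) were lower at that p, against 4.41% of all genes, and 9 lay below without overlap, against 8.32%. With upper-quartile factors 7 (20.6%) were lower at that p, against 4.7%.

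**Figure D1:**
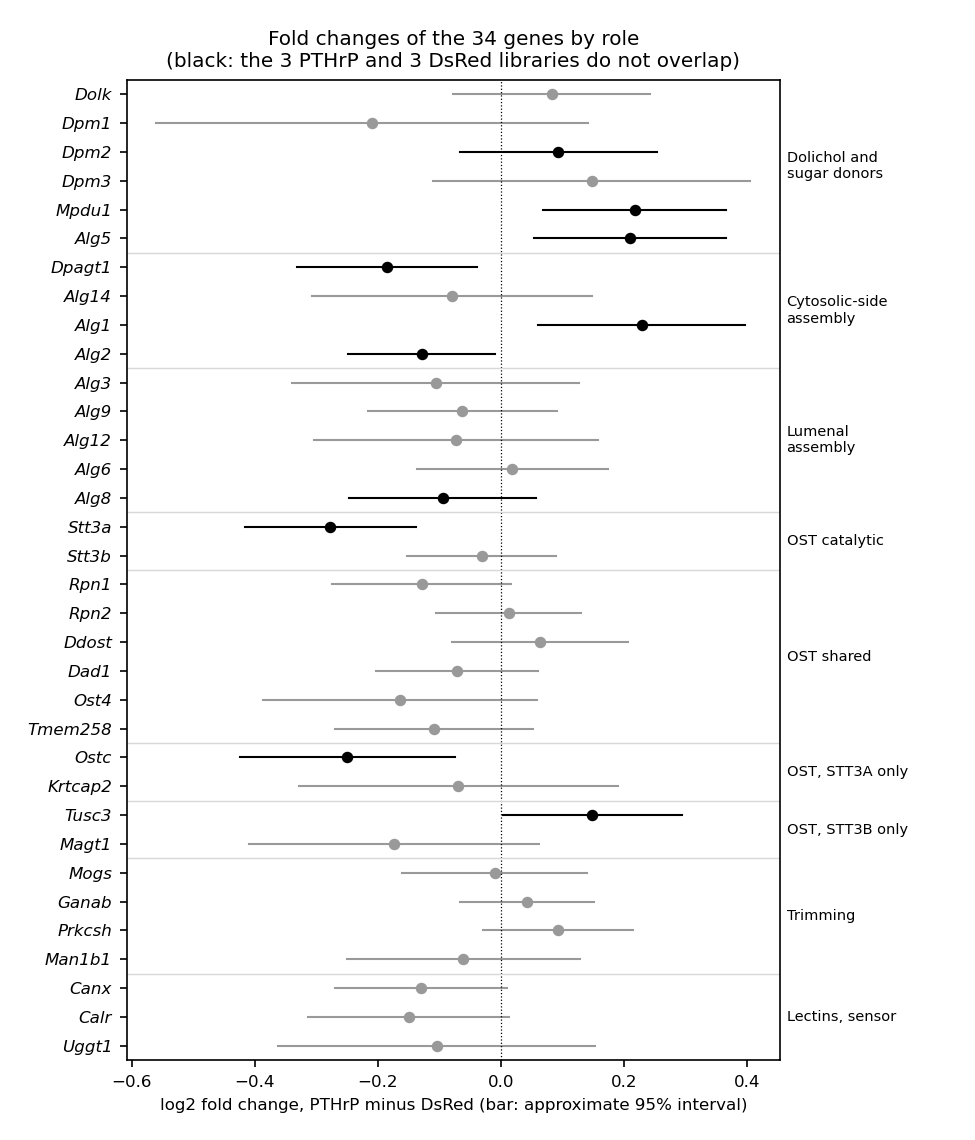
Log2 fold change of each of the 34 genes (PTHrP minus DsRed, x axis), ordered by role, with approximate 95% intervals as bars. Black marks the 10 genes whose libraries do not overlap between the groups, 5 on each side, and Stt3a at -0.28 has the lowest value.

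The oligosaccharyltransferase comes in a pair of forms that share most subunits. STT3A sits at the translocation channel and acts while the protein enters the ER, and STT3B acts on sites that were missed. Stt3a had 411, 364 and 408 CPM in PTHrP replicates 1 to 3 and 502, 478 and 454 CPM in DsRed replicates 1 to 3. All PTHrP values lay under all DsRed values, with means of 394 ± 26.3 and 478 ± 23.8 CPM (SD, n = 3). The log2 fold change was -0.28, with a standard error (SE) of 0.06 and an approximate 95% interval of -0.42 to -0.14 (adjusted p = 0.252), which placed it at rank 81 of the genes tested by p-value. It ranged from -0.31 to -0.22 when each library was left out, with adjusted p-values from 0.0458 without PTHrP replicate 2 (where 0.954% of all genes passed) to 0.949 without DsRed replicate 1. With no filter on low counts the adjusted p was 0.0112, in a fit that called 220 of 44413 genes (0.495%).

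Stt3b had 303, 281 and 307 CPM with PTHrP against 311, 303 and 296 CPM with DsRed. The groups overlapped, and the fold change was -0.03 with an interval of -0.15 to 0.09 (adjusted p = 0.912). The ratio of Stt3a to Stt3b counts within a library does not depend on how libraries are scaled. It was 1.36, 1.30 and 1.33 with PTHrP against 1.61, 1.58 and 1.53 with DsRed, so that every PTHrP library lay below every DsRed library. The log2 ratio was 0.41 ± 0.03 in PTHrP and 0.65 ± 0.04 in DsRed, a difference of -0.25 (95% interval -0.33 to -0.17, computed from the scatter of the libraries). An exact two-sided permutation test over the 6 libraries gave p = 0.1, the smallest possible with 3 against 3. Leaving out single libraries moved the difference between -0.27 and -0.23. A trend in gene length within a library can still affect the ratio. With that trend removed the fold changes were -0.24 for Stt3a and -0.04 for Stt3b.

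**Figure D2:**
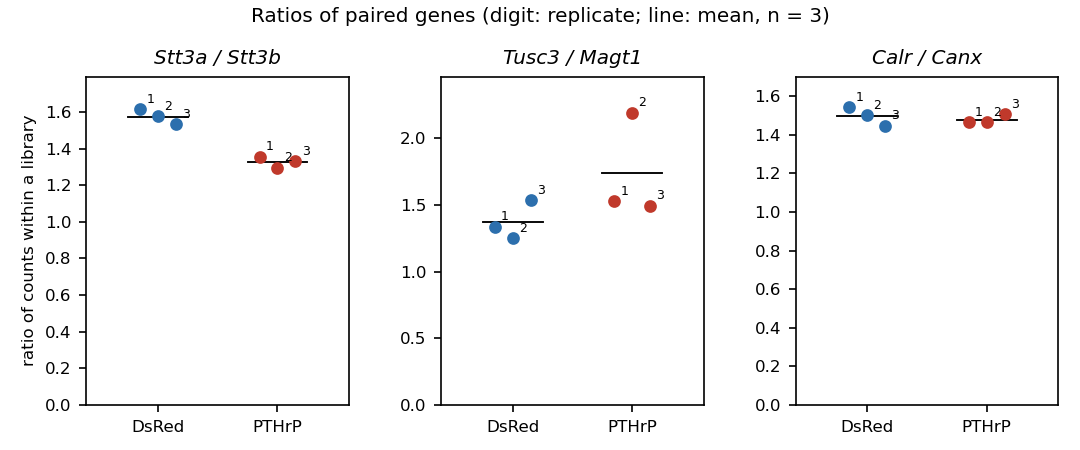
Ratio of the counts of paired genes within each library (y axis, from 0) for DsRed and PTHrP, with the replicate number beside each point and a line at the mean of 3 libraries. Stt3a over Stt3b separates the groups (1.30 to 1.36 against 1.53 to 1.61), Calr over Canx does not, and Tusc3 over Magt1 is highest in PTHrP replicate 2 at 2.19.

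Ostc and Krtcap2 encode the small subunits that tie STT3A to the translocation channel. Ostc had 61.4, 70.2 and 70.0 CPM with PTHrP against 87.2, 77.7 and 74.8 CPM with DsRed. Its groups did not overlap, and the fold change was -0.25 (SE 0.08, interval -0.42 to -0.08, adjusted p = 0.382). Krtcap2 had 51.7, 70.7 and 58.5 CPM with PTHrP against 59.6, 58.8 and 71.4 CPM with DsRed, with no order between the groups. Its fold change of -0.07 had an interval of -0.33 to 0.19 and was positive without PTHrP replicate 1 (0.03) and without DsRed replicate 3 (0.03). Of this pair, Ostc separated the groups and Krtcap2 did not.

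Tusc3 and Magt1 encode alternative oxidoreductase subunits of the STT3B form. Tusc3 had 134, 155 and 138 CPM with PTHrP against 133, 126 and 127 CPM with DsRed. PTHrP replicate 1 lay just above the highest DsRed library, and the fold change was 0.15 (SE 0.07, adjusted p = 0.550). Without PTHrP replicate 2 it was 0.08, with an unadjusted p of 0.124 in edgeR's test. Magt1 had 87.6, 70.8 and 92.0 CPM with PTHrP against 99.2, 100.4 and 82.9 CPM with DsRed, a fold change of -0.17 (interval -0.41 to 0.06, adjusted p = 0.678). With PTHrP replicate 2 left out Magt1 stood at -0.07, and with DsRed replicate 3 left out at -0.26. The ratio of Tusc3 to Magt1, taken after their values were seen and not tested, was 1.53, 2.19 and 1.50 with PTHrP against 1.34, 1.25 and 1.53 with DsRed. Only PTHrP replicate 2 lay well above the rest.

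The 6 subunits shared by both forms had fold changes from -0.16 to 0.06, none with an unadjusted p under 0.05 and none with groups that did not overlap. Rpn1, the large scaffold ribophorin I, had 532, 507 and 527 CPM with PTHrP against 612, 586 and 513 CPM with DsRed. DsRed replicate 3 lay among the PTHrP libraries, and the fold change of -0.13 (adjusted p = 0.611) was -0.20 without it and -0.08 without DsRed replicate 1. Rpn2, ribophorin II, had 1277, 1255 and 1281 CPM with PTHrP against 1301, 1299 and 1179 CPM with DsRed, a fold change of 0.01 with the narrow interval of -0.10 to 0.13. Ddost, the OST48 subunit, was at 0.06 and Dad1, a small membrane subunit first known as a defender against cell death, at -0.07. Without DsRed replicate 3 these were 0.00085 and -0.03. The small subunits Ost4 and Tmem258 were at -0.16 and -0.11. Exons of Ost4 share 677 of their 1272 bases with Agbl5 on the opposite strand, which had 68.4 CPM with PTHrP against 66.8 CPM with DsRed, and the strand setting of the counting is not given.

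**Figure D3:**
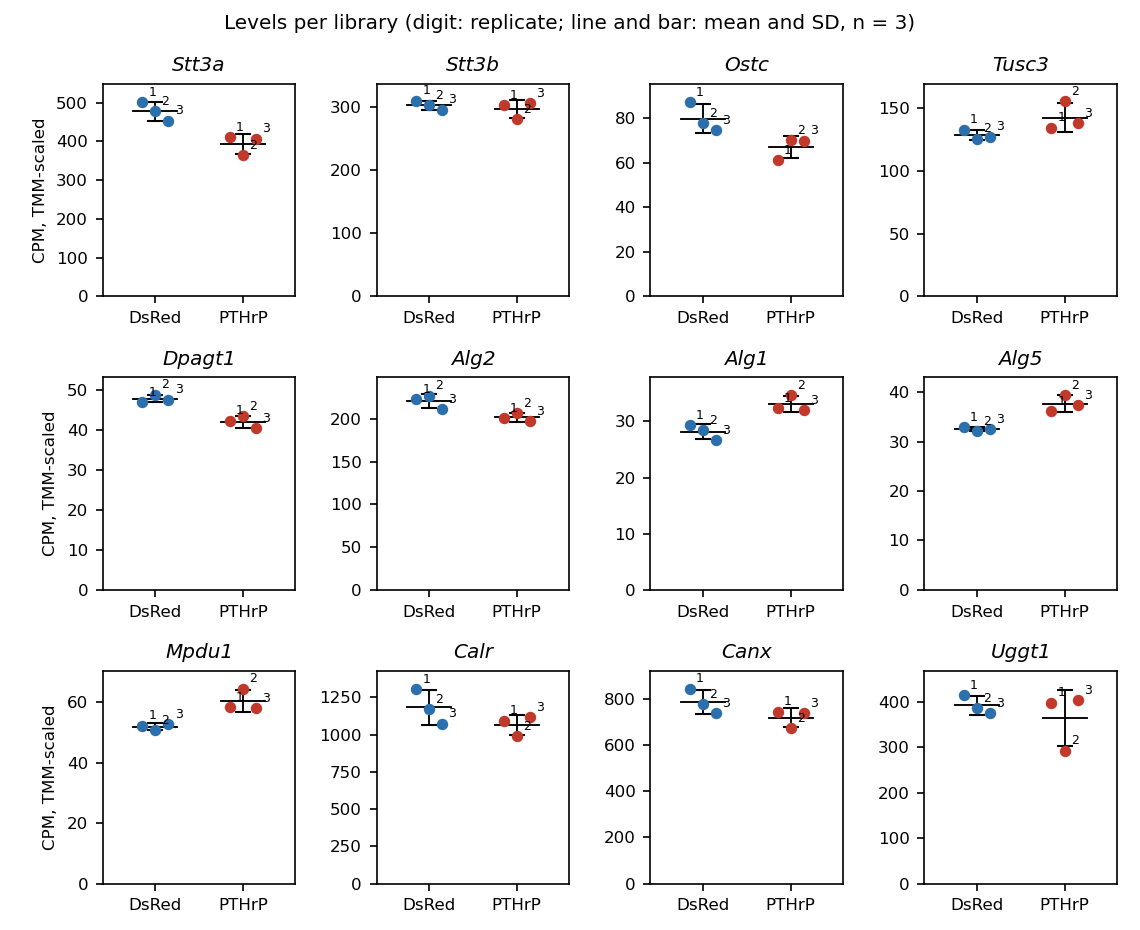
TMM-scaled CPM (y axis, from 0) of 12 genes in each library, with the replicate number beside each point and the mean and SD of 3 libraries as line and bar. Stt3a, Ostc, Dpagt1 and Alg2 lie lower and Tusc3, Alg1, Alg5 and Mpdu1 higher in all PTHrP libraries, while Stt3b, Calr, Canx and Uggt1 overlap between the groups.

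Of the 6 genes that supply dolichol phosphate and its sugars or, as Mpdu1, serve their use, 5 had positive fold changes, with a median of 0.12. Over all genes 48.7% were positive. In 3 of them all PTHrP libraries lay above the DsRed libraries, beside 8.45% of all genes. Mpdu1, needed for the use of dolichol-linked mannose and glucose, had 58.5, 64.6 and 58.1 CPM with PTHrP against 52.3, 50.7 and 52.8 CPM with DsRed. Its fold change was 0.22 (SE 0.07, interval 0.07 to 0.37, adjusted p = 0.376). Alg5, which makes dolichyl-phosphate glucose, had 36.1, 39.4 and 37.3 CPM with PTHrP against 32.9, 32.2 and 32.5 CPM with DsRed, a fold change of 0.21 (SE 0.07, adjusted p = 0.406). In both genes PTHrP replicate 2 was the highest of the 6 libraries, and the other PTHrP libraries still lay above the DsRed ones.

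Dpm1 encodes the catalytic subunit of the dolichol-phosphate mannose synthase, and Dpm2 and Dpm3 its regulatory and anchoring subunits. Dpm2 had 31.9, 29.7 and 30.6 CPM with PTHrP against 28.5, 28.7 and 29.3 CPM with DsRed, which did not overlap though the fold change was only 0.09 (adjusted p = 0.753). Dpm3 was at 0.15 and the dolichol kinase gene Dolk at 0.08, both with overlapping groups. Leaving out 1 library gave 0.08 (PTHrP replicate 2 left out) to 0.26 (DsRed replicate 3 left out) for Dpm3 and 0.05 (PTHrP replicate 1 left out) to 0.13 (PTHrP replicate 2 left out) for Dolk. Dpm1 was the 1 gene of the step with a negative fold change, -0.21, and its interval of -0.56 to 0.14 was wide. Leaving out DsRed replicate 1 gave -0.05, and leaving out DsRed replicate 3 gave -0.34. It had few counts for a gene of this kind, 5.67 to 8.79 CPM, and its exons share 895 bases with Gm20716 on the same strand, which had 0 counts in every library. How reads in such shared bases were assigned is not given in the sources used here. The level of Dpm1 is therefore uncertain.

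On the cytosolic side of the membrane the genes split. Dpagt1, the enzyme that starts the chain on dolichol phosphate and the target of the ER stress drug tunicamycin, had 42.3, 43.4 and 40.4 CPM with PTHrP against 47.0, 48.8 and 47.5 CPM with DsRed. The groups lay clearly apart with little spread within each, and the fold change was -0.18 (SE 0.07, interval -0.33 to -0.04, adjusted p = 0.442). Alg2, a mannosyltransferase, had 201, 207 and 197 CPM with PTHrP against 223, 227 and 211 CPM with DsRed, a fold change of -0.13 (SE 0.05, adjusted p = 0.520). Alg1, which adds the first mannose, went the other way with 32.3, 34.6 and 32.0 CPM with PTHrP against 29.3, 28.5 and 26.7 CPM with DsRed, a fold change of 0.23 (SE 0.08, interval 0.06 to 0.40, adjusted p = 0.404). Alg14, which anchors the enzyme that adds the second N-acetylglucosamine, was at -0.08 and overlapped. Exons of Alg1 share 472 bases with Eef2kmt on the opposite strand (7.55 CPM with PTHrP against 6.99 CPM with DsRed).

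Genes of the lumenal steps differed little. The mannosyltransferase genes Alg3, Alg9 and Alg12 and the glucosyltransferase genes Alg6 and Alg8 had fold changes from -0.11 to 0.02, with adjusted p-values from 0.740 to 0.960. Without PTHrP replicate 2, Alg3 went from -0.11 to -0.02 and Alg12 from -0.07 to -0.0056. Alg8 alone had groups that did not overlap, with 33.0, 32.7 and 32.5 CPM with PTHrP against 35.4, 35.6 and 33.9 CPM with DsRed, a fold change of -0.09 and an interval of -0.25 to 0.06. Exons of Alg9 share 500 bases with 1110032A03Rik on the opposite strand (10.7 CPM with PTHrP against 9.19 CPM with DsRed).

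Trimming genes showed no lean. Mogs, the glucosidase that removes the first glucose, was at -0.01 (interval -0.16 to 0.14), and Ganab and Prkcsh, the catalytic and regulatory subunits of the glucosidase that removes the others, were at 0.04 (interval -0.07 to 0.15) and 0.09 (interval -0.03 to 0.22). Man1b1, the ER mannosidase that marks proteins for degradation, had 140, 114 and 144 CPM with PTHrP against 143, 144 and 129 CPM with DsRed. Its low value was PTHrP replicate 2, and the fold change of -0.06 was 0.04 without that library.

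Calreticulin and calnexin, the soluble and the membrane lectin, had negative fold changes with groups that overlapped, and for both genes only PTHrP replicate 2 lay below every DsRed library. Calr had 1094, 988 and 1116 CPM with PTHrP against 1306, 1168 and 1073 CPM with DsRed. DsRed replicate 3 lay under PTHrP replicates 1 and 3, and the fold change was -0.15 (SE 0.07, interval -0.31 to 0.01, adjusted p = 0.598). Leaving out 1 library gave -0.22 (DsRed replicate 3 left out) to -0.07 (DsRed replicate 1 left out), and -0.10 without PTHrP replicate 2. Canx had 746, 674 and 741 CPM with PTHrP against 847, 778 and 741 CPM with DsRed, a fold change of -0.13 (SE 0.06, interval -0.27 to 0.01, adjusted p = 0.591). For Canx it was -0.08 without PTHrP replicate 2 or without DsRed replicate 1.

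The ratio of Calr to Canx counts stayed within a narrow band. It was 1.47, 1.47 and 1.51 with PTHrP against 1.54, 1.50 and 1.45 with DsRed, and the difference of the log2 ratio was -0.02 with a 95% interval of -0.10 to 0.06 (exact two-sided permutation test, p = 0.7). Uggt1, the folding sensor that adds glucose back to unfolded glycoproteins, had 398, 292 and 403 CPM with PTHrP against 414, 385 and 375 CPM with DsRed. PTHrP replicate 2 alone was low, and the fold change of -0.10 (interval -0.36 to 0.15) was 0.03 without it. Without that library the level of Uggt1 in PTHrP thus lay inside the range of the DsRed libraries.

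**Figure D4:**
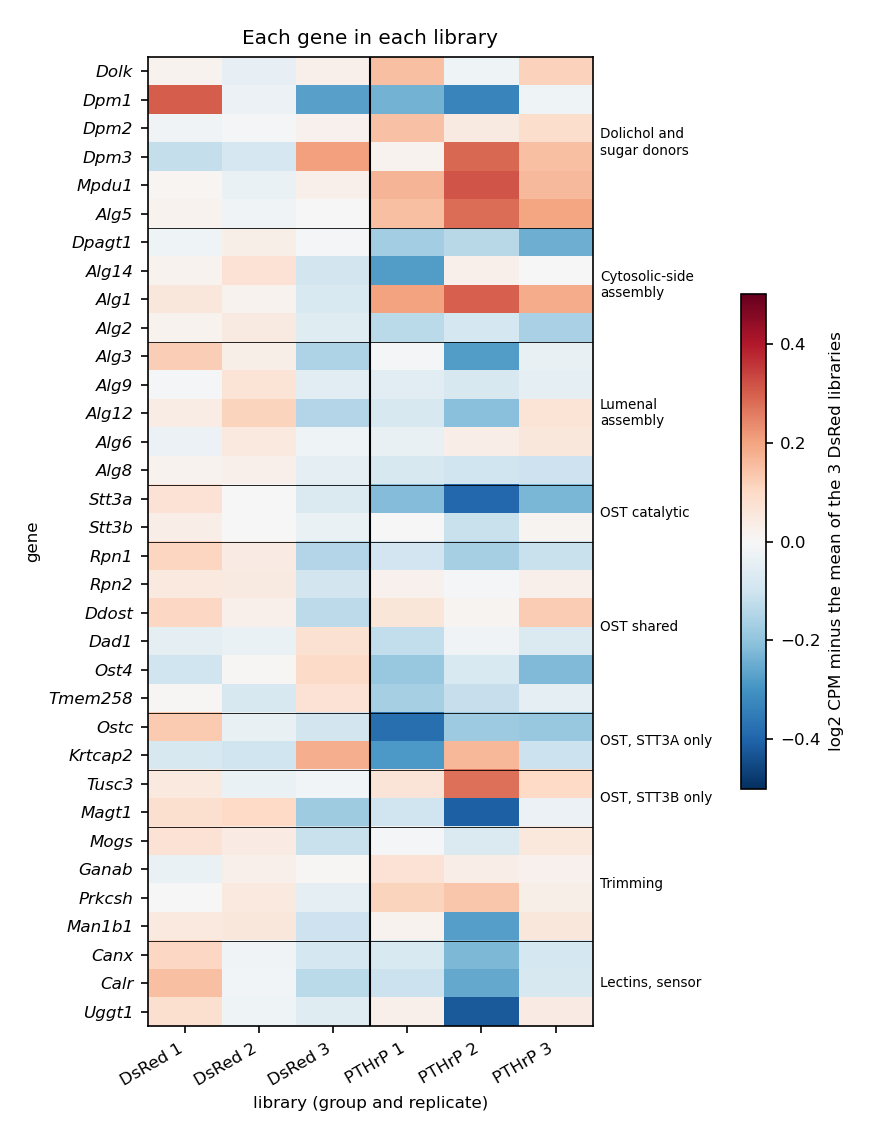
Log2 CPM of each of the 34 genes (rows, by role) in each library (columns), minus the mean of the 3 DsRed libraries, from blue (lower) to red (higher). PTHrP replicate 2 holds the lowest value of 12 genes and DsRed replicate 1 the highest value of 11.

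Across libraries the 34 genes together took 0.735%, 0.706% and 0.752% of all counts in PTHrP replicates 1 to 3 and 0.798%, 0.759% and 0.722% in DsRed replicates 1 to 3, so that the groups overlapped through DsRed replicate 3. PTHrP replicate 2 had the lowest of the 6 levels in 12 of the 34 genes, and in 22.9% of all genes tested. It also had the highest level in 6, among them Mpdu1, Alg1, Alg5 and Tusc3. DsRed replicate 1 had the highest level in 11. The share of all genes with their highest level in either library was not computed.

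Levels of different genes can be compared only per length, as TPM, in which counts are divided by gene length. With the summed length of all annotated exons, Calr was the highest of the 34 at 1212 ± 154 TPM (mean and SD of all 6 libraries) and Dpm1 the lowest at 2.80 ± 0.556 TPM. With the length of the principal transcript, chosen after the data were seen, they were again the highest and the lowest, at 1133 and 6.48 TPM. Rpn2 and Ddost came next with either length, at 885 and 983 TPM with all exons and at 1009 and 697 TPM with the principal transcript, so that their order depended on the length used. Stt3a lay under Stt3b with all exons (151 and 221 TPM) and close to it with the principal transcript (164 and 156 TPM), as the annotated exons of Stt3a sum to 8948 bases and its principal transcript to 5867. Which catalytic subunit was the more abundant transcript was therefore not settled by these counts. On the principal transcript scale Ost4 had 22.6 TPM, which may be too low or too high, since its exons overlap those of Agbl5 and the handling of shared bases is not given.

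**Figure D5:**
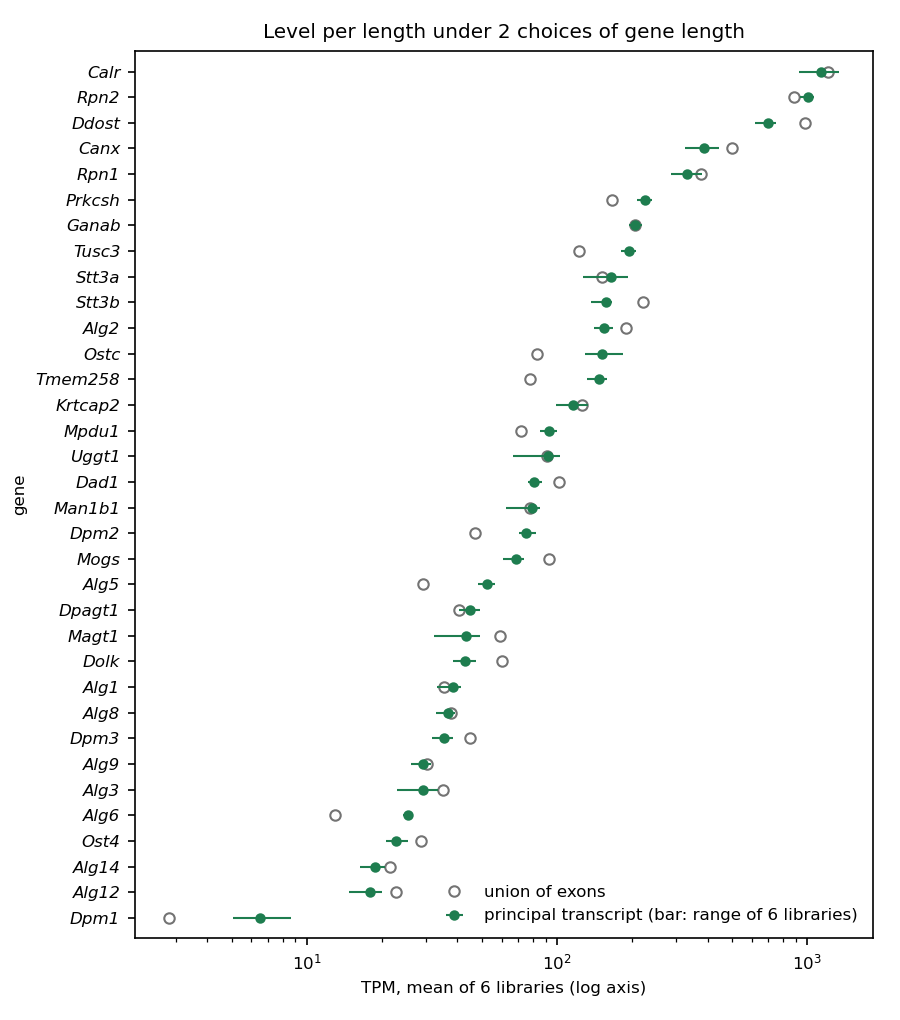
Mean level per length of each gene over 6 libraries in TPM (x axis, log scale), with open circles for the summed exons and filled circles with the range of the 6 libraries for the principal transcript. Calr, Rpn2 and Ddost are the highest 3 and Dpm1 the lowest with either length.

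A second list held 32 other genes of the pathway, from dolichol and mannose supply to Golgi trimming. All 32 were tested, and 20 had a negative fold change, with a median of -0.07. None passed over all genes in the main edgeR fit, with DESeq2 or with limma-voom. With no filter on low counts 4 passed in edgeR, all lower, beside 0.495% of all genes. Without PTHrP replicate 2, 1 passed and was lower, beside 0.954% of all genes. At an unadjusted p under 0.05, 9 were lower and 1 was higher, beside 3.98% and 4.92% of all genes. The 10 genes with such a p in either direction, beside 8.9% of all genes, became 5 without DsRed replicate 1 and 6 without DsRed replicate 2, where the share of all genes was 5.16% and 6.02%. The 4 with the smallest p-values were Gmppb, Man1a, Mgat2 and Srd5a3. Gmppb, which makes GDP-mannose, had 13.2, 12.3 and 13.5 CPM with PTHrP against 19.8, 19.0 and 14.3 CPM with DsRed, a fold change of -0.44 (SE 0.12, adjusted p = 0.348). Here DsRed replicate 3 again lay closest to the PTHrP libraries.

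Man1a and Mgat2, a mannosidase and an N-acetylglucosaminyltransferase of the Golgi, were at -0.20 (adjusted p = 0.367) and at -0.26 (adjusted p = 0.370). Srd5a3, a reductase of dolichol synthesis, was the higher one, with 20.3, 20.2 and 21.7 CPM with PTHrP against 16.6, 17.1 and 17.6 CPM with DsRed. Its fold change was 0.28 (adjusted p = 0.370). It thus lay on the same side as Mpdu1, Alg5 and Dpm2. Other genes of dolichol supply went both ways. Nus1 was at -0.20 (-0.11 without PTHrP replicate 2). Dhdds was at -0.18 (-0.09 without DsRed replicate 1, -0.29 without DsRed replicate 3). Dolpp1 was at 0.12 (0.08 without PTHrP replicate 3) and Dolk at 0.08, both with overlapping groups. The remaining genes lower at an unadjusted p under 0.05 were Lman1 (-0.21), Pdia3 (-0.26), Alg11 (-0.38), Clgn (-0.19) and Mlec (-0.26). Of these only Mlec had groups that overlapped. Without PTHrP replicate 2, Pdia3 was at -0.15, Alg11 at -0.20 and Mlec at -0.15.

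In coordinates of the mouse build GRCm38, Stt3a lies on chromosome 9 at 36729344 to 36767679, Stt3b on chromosome 9 at 115242581 to 115310421 and Ostc on chromosome 3 at 130695912 to 130709444. Mpdu1 lies on chromosome 11 at 69656697 to 69662642, Dpagt1 on chromosome 9 at 44326019 to 44333900 and Alg1 on chromosome 16 at 5233621 to 5244912. All 34 genes are annotated as protein coding.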

How the data were processed

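RNA from 6 MIN6 libraries was analysed from raw counts per gene in a table the authors had deposited. The reads went through bcl2fastq, STAR and Subread featureCounts 2.0.3 on build GRCm38, per the submitters' processing notes. For the annotation, the strand setting and shared reads the choices were not given in the sources used here. Groups and replicate numbers came from the titles, and nothing says that replicates were separate cultures, so p-values measure the spread between these libraries, which may be technical. After removal of 287 repeated entries, filterByExpr kept 21141 of 55487 genes. They were scaled with TMM factors and fitted with edgeR 4.0.16 (quasi-likelihood test, robust, group term only, Benjamini-Hochberg adjustment over all genes tested, threshold 0.05, two-sided). The SE is the fold change divided by the square root of F, and intervals use it with the degrees of freedom of the fit, so both are approximate. All pairs of libraries differed by more than sampling noise. Lengths, positions and exon overlaps came from GENCODE M21, and promoters from RefSeq. The script was tested on simulated counts.

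The members and lists were chosen with earlier results of these data known. The genes described in full are Calr, Canx, Uggt1, Stt3a, Stt3b and the 8 members with the smallest p-values, and, of the other pathway genes, the 4 with the smallest. Further values were chosen after they were seen. Among them were Hspa5, Alg8, Dpm2, Nus1, Dhdds, Dolpp1, Lman1, Pdia3, Alg11, Clgn, Mlec and the Tusc3 to Magt1 ratio. Alternatives were other scaling factors and filters, DESeq2 1.42.0, limma-voom 3.58.1, a replicate block, a length correction and each library left out.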

Additional observations from a re-analysis of the deposited data

How the results depend on the processing

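Of 476 values of single members over 14 alternatives, 463 kept direction and side of the threshold, 2 passed it (Stt3a) and 11 changed sign. The sign changes were all from leaving out single libraries, over which Alg14 ranged from -0.13 to 0.010, Alg6 from -0.0038 to 0.045, Krtcap2 from -0.20 to 0.029, Man1b1 from -0.12 to 0.037, Mogs from -0.064 to 0.024, Rpn2 from -0.033 to 0.037, Stt3b from -0.056 to 0.0099 and Uggt1 from -0.18 to 0.034. The sign turned without PTHrP replicate 1 in Alg14 and Krtcap2, without PTHrP replicate 2 in Man1b1, Mogs, Stt3b and Uggt1, without PTHrP replicate 3 in Alg6, without DsRed replicate 1 or 2 in Mogs and without DsRed replicate 3 in Krtcap2 and Rpn2. With no filter on low counts 1 member and 4 other pathway genes passed, all lower, beside 0.495% of all genes. Members lower at an unadjusted p under 0.05 numbered 7 with upper-quartile factors and 9 with the length trend removed, where 9 also lay below without overlap. Leaving out single libraries gave 0 to 1 members passing, 2 to 8 lower and 3 to 4 higher at an unadjusted p under 0.05, and 5 to 12 below and 5 to 7 above without overlap. Over all genes these ranges were 2.19% to 6.21% lower, 2.97% to 6.77% higher, 11.8% to 15.2% below and 11% to 14.9% above. Leaving them out also gave a member median of -0.0825 to -0.014, 0 to 1 other pathway genes passing and 5 to 11 at an unadjusted p under 0.05, and a Calr to Canx difference of -0.041 to 0.0043, the last without DsRed replicate 1. The mean log2 ratio of Stt3a to Stt3b per length was -0.55 with all exons and 0.056 with the principal transcript, through the lengths alone. The cause of the other shifts was not tested.

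The labels do not say whether the replicate numbers pair libraries. Same-numbered libraries had deviations correlated at 0.02, -0.11 and 0.02. These values show no pairing, and so few libraries cannot exclude it. With the replicate block 0 members and 7 of all genes passed, against 0 and 9, with 3 members lower and 3 higher at an unadjusted p under 0.05, beside 3.67% and 4.19% of all genes, and a median of -0.07. In a balanced design the block cannot change the mean difference of a ratio. DESeq2 and limma-voom called 0 members too, with 136 and 9 calls in all.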
